A study of Mus musculus with 18 samples.

Results

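The hypoxia response and the glycolytic enzymes of mouse pancreatic beta cells are described here through 34 genes: 21 known targets of the hypoxia-inducible factors (HIF) and 13 enzymes of core glycolysis. This split does not mean that the 13 enzymes lie outside HIF control. The genes were taken from a list of symbols matched to the gene IDs with GENCODE release M21, and all 34 were found among 53090 IDs. All 34 were also among the 19284 genes that passed the filter on low counts and were tested. The beta cells came from LIRKO mice, which lack the insulin receptor in the liver, and from Ctrl mice, and each genotype was fed HFD, taken to mean a high-fat diet, or chow. The 18 RNA-seq libraries comprised 3 LIRKO HFD, 4 LIRKO chow, 5 Ctrl HFD and 6 Ctrl chow libraries. Replicate numbers used here follow the order of the libraries within each group, as the labels give none. In all groups islets were handpicked, kept overnight in culture medium and dispersed, and cells were sorted by light scatter and their own fluorescence. Each transcript level is thus that of the cultured and sorted beta cell fraction, which also held marker transcripts of other cell types. The labels give no strain, sex, age, length of diet or Cre driver, and leave unsaid whether each library is a separate animal. The p-values thus speak only of variation among the libraries, some of which could be technical.

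HIF is a pair of proteins, an oxygen-regulated alpha subunit (Hif1a or Epas1) and a constant partner (Arnt). In oxygenated cells prolyl hydroxylases of the Egln family mark the alpha subunit, the Vhl ubiquitin ligase removes it, and little target transcription follows. When oxygen is low the alpha subunit persists and, with its partner, binds short DNA elements with the core RCGTG beside its target genes. The targets raise glucose uptake and glycolysis, keep pyruvate out of the mitochondria, remove mitochondria, modify collagen and signal to blood vessels. Beta cells normally rely on oxidation of pyruvate to couple glucose to insulin secretion, and in mice the low-affinity transporter Slc2a2 is their main glucose carrier.

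The core motif can be seen in the sequence before the start of several members. Both forms of the core, ACGTG and GCGTG, were searched on both strands in the 250 bases before each RefSeq start, so their reverse complements CACGT and CACGC also count, and matches may overlap. Of 32851 such windows in the RefSeq table, 38.6% held at least 1 match. Of the 31 members with a window, the window nearest the GENCODE start held a match for 15 of 18 hypoxia targets and 8 of 13 glycolytic enzymes. Plod2, Ndrg1 and Bnip3l have no entry in that table. The windows of 6 members are printed (RefSeq, build GRCm38.p6), 5′ to 3′ along the gene, with matches in capitals. They show the oxygen sensor Egln3, the nuclear regulators Ankrd37 and Mxi1, the metabolic switch Pdk1 and the mitochondrial protein Bnip3, whose values are described below, beside the glycolytic enzyme Pgk1. Each printed stretch lies upstream of the RefSeq start and outside every GENCODE M21 exon. That of Ankrd37 lies in an intron of its longer GENCODE model, and those of Ankrd37 and Bnip3 were shortened by 17 and 13 bases to leave out annotated exon.
Egln3, chr12:54203875-54204124, minus strand: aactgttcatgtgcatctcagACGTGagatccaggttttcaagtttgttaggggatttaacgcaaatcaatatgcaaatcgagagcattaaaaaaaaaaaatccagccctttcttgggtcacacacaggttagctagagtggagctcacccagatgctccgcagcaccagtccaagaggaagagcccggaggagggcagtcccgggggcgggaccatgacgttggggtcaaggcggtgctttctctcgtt
Ankrd37, chr8:45999868-46000100, minus strand: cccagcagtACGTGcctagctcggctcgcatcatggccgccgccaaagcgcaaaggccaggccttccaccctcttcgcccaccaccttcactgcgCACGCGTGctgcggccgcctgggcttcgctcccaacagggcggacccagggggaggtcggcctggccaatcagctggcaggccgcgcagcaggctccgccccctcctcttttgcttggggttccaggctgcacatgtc
Mxi1, chr19:53310256-53310505, plus strand: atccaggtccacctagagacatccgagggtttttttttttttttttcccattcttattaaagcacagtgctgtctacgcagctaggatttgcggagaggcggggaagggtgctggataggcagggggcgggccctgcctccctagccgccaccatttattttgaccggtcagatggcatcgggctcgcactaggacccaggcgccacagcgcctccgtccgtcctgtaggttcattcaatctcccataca
Pdk1, chr2:71872974-71873223, plus strand: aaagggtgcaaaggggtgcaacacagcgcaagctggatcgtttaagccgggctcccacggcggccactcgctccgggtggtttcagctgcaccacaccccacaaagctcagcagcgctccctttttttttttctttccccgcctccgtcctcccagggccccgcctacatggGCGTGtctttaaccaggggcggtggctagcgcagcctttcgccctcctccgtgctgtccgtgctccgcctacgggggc
Bnip3, chr7:138909520-138909756, minus strand: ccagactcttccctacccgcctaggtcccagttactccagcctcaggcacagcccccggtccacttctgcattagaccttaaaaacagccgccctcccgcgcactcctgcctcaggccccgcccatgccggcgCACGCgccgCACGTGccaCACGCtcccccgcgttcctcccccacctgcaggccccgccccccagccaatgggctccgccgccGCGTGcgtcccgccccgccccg
Pgk1, chrX:106186850-106187099, plus strand: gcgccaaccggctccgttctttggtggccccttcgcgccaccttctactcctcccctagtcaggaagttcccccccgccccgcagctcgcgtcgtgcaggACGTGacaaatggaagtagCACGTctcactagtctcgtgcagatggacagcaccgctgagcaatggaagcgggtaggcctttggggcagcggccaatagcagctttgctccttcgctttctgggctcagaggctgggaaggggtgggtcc
Bnip3 had 5 matches, of which a pair shares the palindrome CACGTG, and Ankrd37 had 3 in the printed stretch. Egln3 and Pdk1 had 1 each and Pgk1 had 2. The Mxi1 window nearest its start had none, while its 2 other RefSeq windows each had at least 1. A match is a description of the letters and shows neither binding nor use of the site.

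Total counts ran from 19490235 to 51714775 per library, and values are given as CPM (read counts scaled to a common library size) with TMM factors. LIRKO chow replicates 1 and 2, and 3 and 4, were closer to each other than any other pair within a group. Their log2 ratios, over genes above a floor of mean counts, had scaled median absolute deviations of 0.109 and 0.121. The next pair had 0.203. Where summing each LIRKO chow pair ended a call this is given beside it. The 10 beta cell markers together held 99829.9 CPM or more in every library. The summed 12 endothelial markers were at 285 to 364 CPM in LIRKO HFD, 182 to 371 CPM in Ctrl HFD and 44.1 to 232 CPM in Ctrl chow libraries. In LIRKO chow they were at 20.5, 24.8, 205 and 176 CPM in replicate order. Endothelial transcripts were thus present in all groups. Summed stromal markers were at 1.32, 1.37, 23.8 and 19.3 CPM in the same LIRKO chow libraries. Summed acinar and ductal markers went the other way, at 187, 229, 55.5 and 29.8 CPM. The part of this split in the calls was not tested. Nuclear RNAs (Malat1 and Neat1) summed to 15318 and 12291 CPM in Ctrl HFD replicates 1 and 2 and to 1545 to 7475 CPM in the other libraries, and where leaving out those 2 libraries changed a call of a member this is given beside it. In such bulk samples fewer cells of a type and less RNA per cell cannot be told apart.

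On chow, the collagen-modifying enzyme Plod2 and the transcriptional repressor Mxi1 were higher in LIRKO than in Ctrl beta cells, and they were the 2 of 34 members that passed the test (edgeR quasi-likelihood, Benjamini-Hochberg adjusted p under 0.05 over all genes). Of all tested genes 5.15% passed in this comparison, 2.95% as higher and 2.2% as lower. The fitted change was above 0 for 19 of 21 hypoxia targets, with a median of 0.98 on the log2 scale, and for 12 of 13 glycolytic enzymes, with a median of 0.62, against a median of -0.02 over all tested genes. For 12 of the 21 hypoxia targets every LIRKO chow library was above every Ctrl chow library, and this held for 1 of the 13 glycolytic enzymes and for 6.46% of all tested genes. The 10 beta cell markers had a median log2 change of -0.57 in the same comparison, with 1 of them past the threshold as lower, and the endothelial markers had a median of 0.17 with none past it. Their part in the result was not tested.

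Plod2, the lysyl hydroxylase that prepares collagen for cross-linking, stood at 12.6, 13.8, 17.6 and 18.5 CPM in the LIRKO chow libraries, and at 2.12, 2.83 and 6.95 CPM (lowest, median and highest) in the 6 Ctrl chow libraries. All 4 LIRKO chow libraries were above all 6 Ctrl chow libraries, and the log2 change was 2.19 ± 0.45 (SE), a 4.57-fold difference (edgeR adjusted p = 0.00761). Plod2 shares 346 exonic bases with the opposite-strand model Gm38391, which held at most 14.6% of the summed counts of Gm38391 and Plod2. The collagen prolyl 4-hydroxylase subunits P4ha1 and P4ha2, which stabilise the collagen helix, went the same way with wider spread. P4ha2 had 122 to 154 CPM in LIRKO chow and 42.0 to 113 CPM in Ctrl chow libraries, without overlap, but its change of 0.99 ± 0.40 did not pass (edgeR adjusted p = 0.181). P4ha1 had 352 to 436 CPM in LIRKO chow libraries and 103 to 448 CPM in Ctrl chow libraries, which overlapped through 1 Ctrl chow library.

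Mxi1, a Max-binding repressor that opposes Myc, showed a small and even difference. Its level was 44.1, 46.6, 52.5 and 51.1 CPM in LIRKO chow libraries against 25.6, 31.0 and 36.2 CPM (lowest, median, highest) in Ctrl chow libraries. The groups did not overlap, and the log2 change was 0.67 ± 0.18 (edgeR adjusted p = 0.0352). Among the other regulators, Ankrd37, a small ankyrin-repeat protein whose gene is a direct HIF-1 target, was at 33.5, 32.6, 43.6 and 40.3 CPM in LIRKO chow and at 7.90, 16.1 and 27.5 CPM in Ctrl chow libraries. Here too the groups did not overlap, but the change of 1.16 ± 0.35 fell short (edgeR adjusted p = 0.062). Kdm3a, a demethylase of histone H3, had 94.1 to 139 CPM in LIRKO chow and 45.4 to 75.1 CPM in Ctrl chow libraries, with a log2 change of 0.98 ± 0.30 and an edgeR adjusted p of 0.0695.

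The oxygen sensors themselves are HIF targets and close a feedback loop. Egln3 (PHD3) was at 15.0, 16.1, 18.9 and 17.1 CPM in LIRKO chow libraries and at 1.08, 3.35 and 8.63 CPM in Ctrl chow libraries (lowest, median, highest). No library overlapped, and the log2 change of 2.11 ± 0.61 had an edgeR adjusted p of 0.0545. Egln1 (PHD2), the main sensor in most tissues, was at 222, 227, 226 and 215 CPM in LIRKO chow libraries and had a median of 130.2 CPM in Ctrl chow libraries. The highest Ctrl chow library came within 1 CPM of the lowest LIRKO chow library without reaching it, and the log2 change was 0.70 ± 0.30.

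Several targets act on glucose uptake and use. Slc2a1 (GLUT1), the high-affinity glucose transporter, had 154, 164, 189 and 182 CPM in LIRKO chow libraries and 28.5, 57.4 and 128 CPM (lowest, median, highest) in Ctrl chow libraries. Pdk1, the kinase that switches off pyruvate dehydrogenase, had 251, 252, 279.7 and 285 CPM in LIRKO chow against 61.1, 96.0 and 193 CPM in Ctrl chow libraries. Neither gene's groups overlapped, and neither change passed: 1.47 ± 0.62 for Slc2a1 (edgeR adjusted p = 0.198) and 1.34 ± 0.40 for Pdk1 (edgeR adjusted p = 0.0584). Pfkfb3, which makes the activator of phosphofructokinase, ran from 72.5 to 115 CPM in LIRKO chow and from 11.8 to 66.9 CPM in Ctrl chow libraries, a log2 change of 1.64 ± 0.59. Its relative Pfkfb4 stayed between 8.23 and 9.36 CPM in LIRKO chow and between 7.76 and 10.7 CPM in Ctrl chow libraries. Ak4, a mitochondrial adenylate kinase, differed most between single libraries: 61.3, 62.7, 79.8 and 79.4 CPM in LIRKO chow, against 2.94, 18.8 and 60.0 CPM (lowest, median, highest) in Ctrl chow. With that spread its change of 1.67 ± 0.98 was far from the threshold (edgeR adjusted p = 0.389).

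The mitochondrial and secreted targets were split. Bnip3, a receptor that sends mitochondria to autophagy, had 390.2, 391, 418 and 413 CPM in LIRKO chow libraries and 62.6, 128 and 354 CPM in Ctrl chow libraries (lowest, median, highest), with no overlap and a log2 change of 1.42 ± 0.58 (edgeR adjusted p = 0.186). Its homologue Bnip3l (NIX) had 97.3 to 108 CPM in LIRKO chow and 39.2 to 103 CPM in Ctrl chow libraries, with a change of 0.74 ± 0.21 and an edgeR adjusted p of 0.0542. Vegfa, the blood vessel growth factor through which islets recruit endothelium, was at 712, 675, 869.6 and 922 CPM in LIRKO chow and at 543, 648 and 831 CPM in Ctrl chow libraries. Those ranges overlapped, and the Vegfa change of 0.24 ± 0.24 was about the size of its error. The vasodilator peptide gene Adm (1.03 ± 0.76) and the cytokine gene Mif (0.36 ± 0.40) also had overlapping groups. Ndrg1, a stress-induced gene often used as a hypoxia marker, had a change below 0, -0.21 ± 0.18. Car9, the cell-surface carbonic anhydrase, was nearly absent, with 1 to 27 reads per library in all groups.

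The core glycolytic enzymes had a lower median change on chow, and none passed by edgeR (lowest adjusted p 0.136) or by DESeq2. With an unadjusted p under 0.05 there were 2 of 13, Gpi1 and Eno2, against 12 of 21 hypoxia targets and 18.8% of all tested genes. Gpi1, which turns glucose 6-phosphate into fructose 6-phosphate, was the enzyme with all LIRKO chow libraries higher: 567, 569, 663 and 658 CPM, against 189, 355 and 552 CPM (lowest, median, highest) in Ctrl chow, a change of 0.76 ± 0.35. Pgk1, the first ATP-yielding step, had 242, 257, 254 and 241 CPM in LIRKO chow and 52.2, 131 and 296 CPM in Ctrl chow libraries. That Ctrl chow range enclosed all LIRKO chow values, and the change was 0.83 ± 0.48 (edgeR adjusted p = 0.385). Changes were 0.62 ± 0.48 for Pfkl, 0.82 ± 0.58 for Pfkp, 0.65 ± 0.42 for Tpi1, 0.70 ± 0.45 for Pgam1 and 0.80 ± 0.45 for Eno1, but 0.20 ± 0.31 for Aldoa and 0.28 ± 0.30 for Gapdh. Eno2, the neuronal and endocrine enolase, was the exception in direction: 117, 114, 103 and 104 CPM in LIRKO chow, all below the 125, 133 and 153 CPM (lowest, median, highest) of Ctrl chow, a change of -0.32 ± 0.12. Groups separated in that direction for 5.21% of all tested genes.

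The count of members past the threshold on chow depended on single libraries. It was 6 without LIRKO HFD replicate 1, Ctrl HFD replicate 4 or Ctrl chow replicate 1, it was 4 without Ctrl HFD replicate 1 or 5 and 5 without Ctrl HFD replicate 2, and 1 without any one LIRKO chow library or without Ctrl chow replicate 2, 4, 5 or 6. With each close pair of LIRKO chow libraries summed it was 0, and Plod2 then had a log2 change of 2.19 with an edgeR adjusted p of 0.0854. Without Ctrl HFD replicates 1 and 2 it was 8, the added ones being Egln3, Ankrd37, Pdk1, Kdm3a and Bnip3l as higher and Eno2 as lower. The single call in the counts of 1 was Plod2 each time, and Mxi1 then had an edgeR adjusted p of 0.0532 to 0.119. Shares of all genes called in these fits are not reported here, so the changed counts cannot be read as particular to the members.

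**Figure D1:**
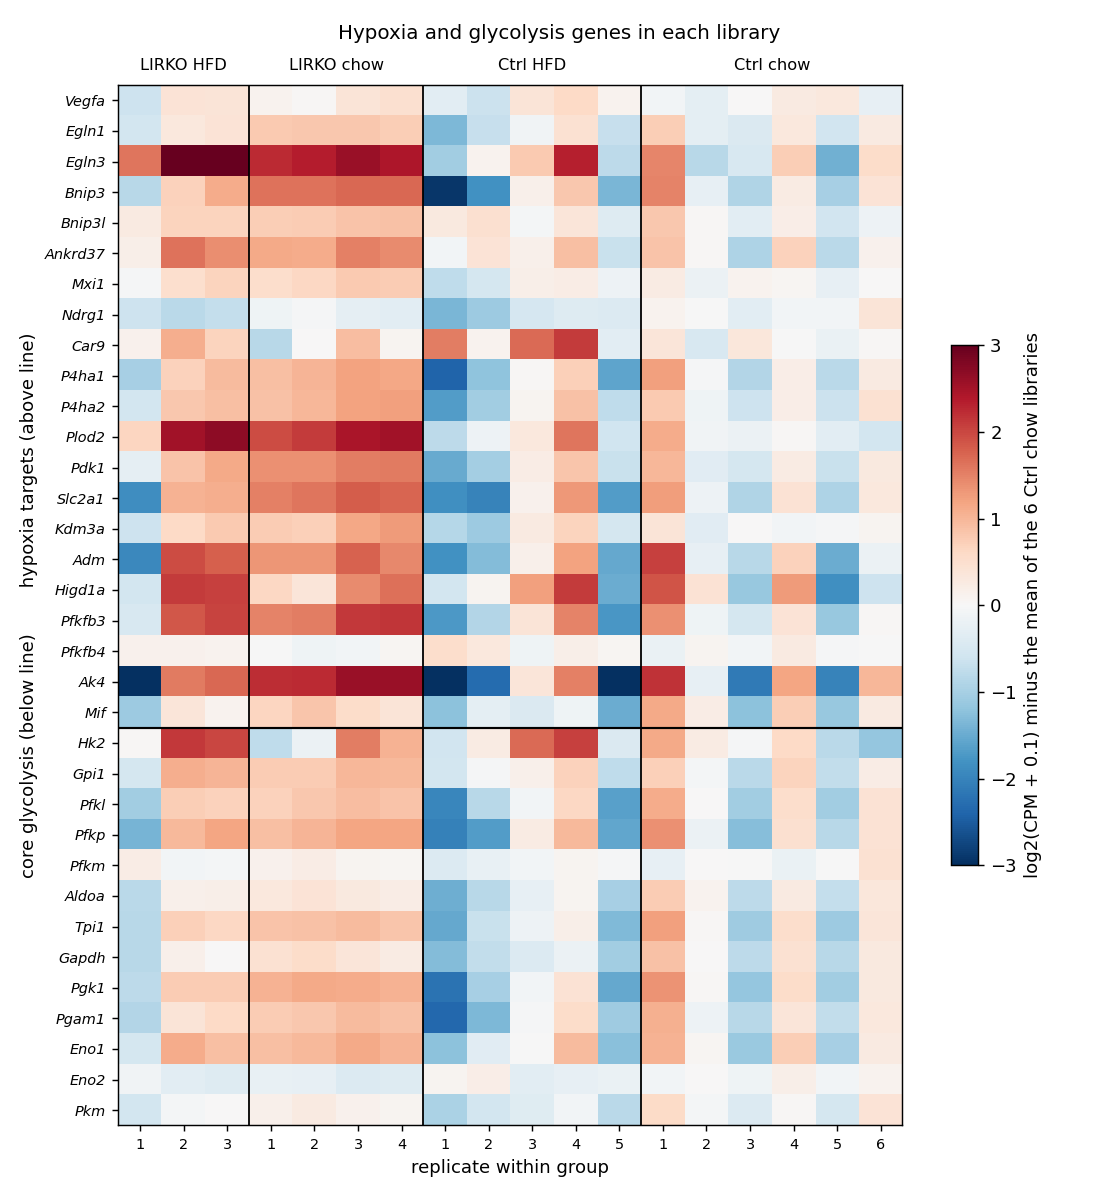
Level of each of the 34 genes (rows) in each of the 18 libraries (columns, by group and replicate), as log2(CPM + 0.1) minus the mean of the 6 Ctrl chow libraries; the line separates the 21 hypoxia targets from the 13 glycolytic enzymes and the colour scale is cut at 3 in both directions. Most rows share a column pattern: the 4 LIRKO chow libraries are red, LIRKO HFD replicate 1 and Ctrl HFD replicates 1 and 5 are blue, and Ctrl HFD replicate 4 and Ctrl chow replicate 1 are red.

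On HFD no member passed the edgeR test between LIRKO and Ctrl beta cells, where 0.508% of all tested genes did (0.316% as higher, 0.192% as lower), and Egln3 and Plod2 had the highest fitted changes. Unadjusted p was under 0.05 for 5 members by edgeR, all hypoxia targets, and for 7.81% of all genes, and DESeq2 called 1, Plod2. The median log2 change was 0.76 for hypoxia targets and 0.68 for glycolytic enzymes, against -0.04 over all genes. No member's groups were separated in either direction, which was so for 2.51% of all genes as higher and 2.5% as lower.

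Plod2 was at 4.96, 18.5 and 20.7 CPM in the 3 LIRKO HFD libraries and at 1.79, 2.79, 3.94, 9.73 and 2.03 CPM in the 5 Ctrl HFD libraries, a log2 change of 1.85 ± 0.50 (edgeR adjusted p = 0.147). Egln3 was at 9.55, 42.3 and 42.8 CPM in LIRKO HFD and at 1.44, 3.31, 5.42, 16.0 and 1.74 CPM in Ctrl HFD libraries, a change of 2.49 ± 0.68 (edgeR adjusted p = 0.151). For both genes LIRKO HFD replicate 1 lay inside the Ctrl HFD range and Ctrl HFD replicate 4 lay above that replicate. Without Ctrl HFD replicates 1 and 2 no member passed, as with all libraries. Without Ctrl HFD replicate 4 both genes passed, Plod2 at an edgeR adjusted p of 0.0144 and Egln3 at 0.0164. Mxi1 had 29.5, 43.3 and 48.5 CPM in LIRKO HFD and 17.8, 21, 34.2, 35.4 and 27.2 CPM in Ctrl HFD libraries (0.57 ± 0.20). Ankrd37 (0.96 ± 0.39) and Pfkfb3 (1.42 ± 0.66) were the other members with an unadjusted p under 0.05. Ak4 was at 1.54, 38.9 and 43.7 CPM in LIRKO HFD against 0.596, 2.56, 17.1, 37.7 and 0.660 CPM in Ctrl HFD libraries, so that both groups held libraries at either end of its range.

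**Figure D2:**
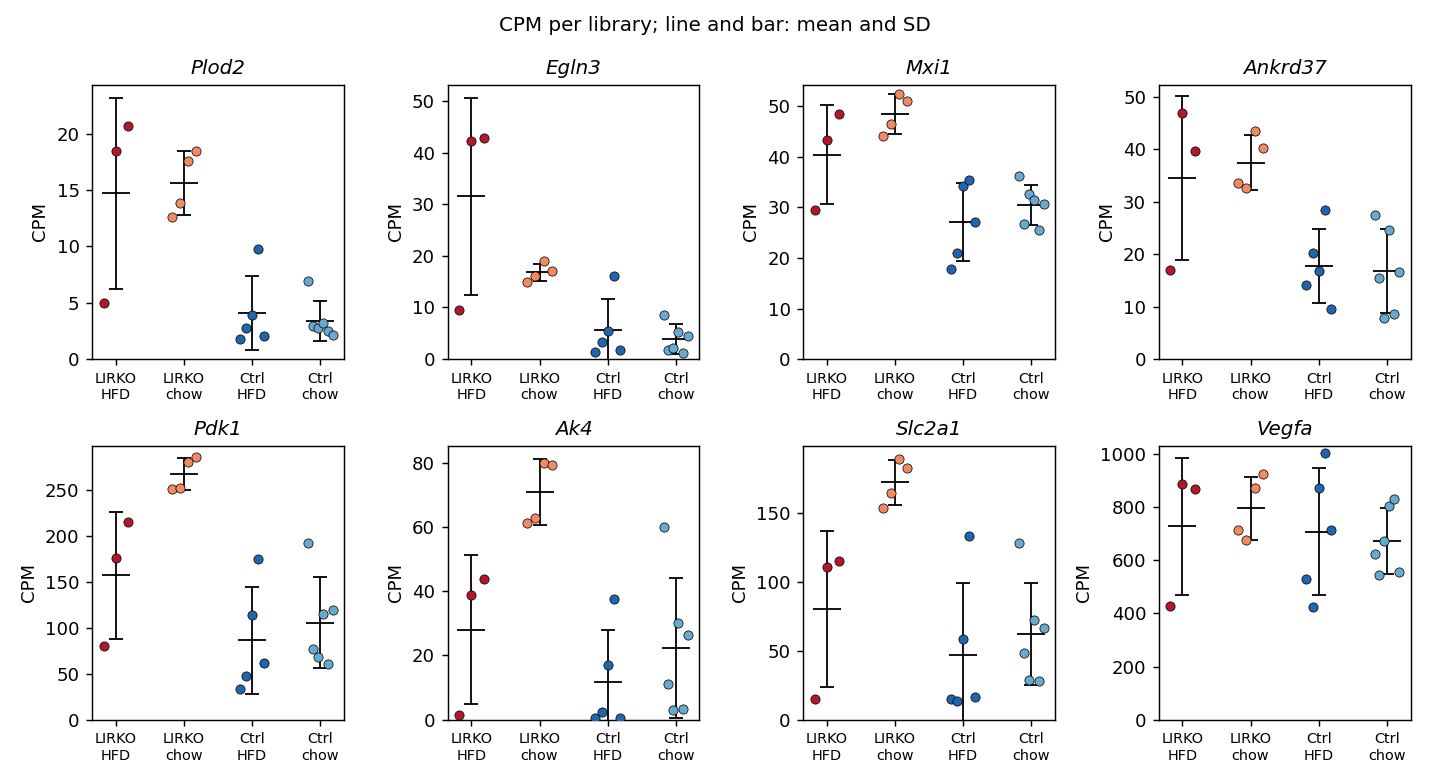
CPM of 8 hypoxia targets in every library of the 4 groups (points), with the group mean (line) and SD (bar, not drawn below 0). On chow the LIRKO points of the first 7 genes lie above all Ctrl points, while on HFD LIRKO replicate 1 lies among the Ctrl points; Vegfa overlaps in both diets.

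The genotype difference averaged over both diets, which uses all 18 libraries, passed for 6 of the 21 hypoxia targets and for none of the 13 glycolytic enzymes; 5.68% of all genes passed, 3.16% as higher and 2.52% as lower. The 6 were Plod2 (log2 change 2.02 ± 0.34, edgeR adjusted p = 0.00127), Egln3 (2.30 ± 0.46, 0.00491), Mxi1 (0.62 ± 0.13, 0.00847), Ankrd37 (1.06 ± 0.26, 0.0202), Pdk1 (1.10 ± 0.30, 0.0342) and Pfkfb3 (1.53 ± 0.44, 0.0499). They comprise a collagen enzyme, an oxygen sensor, a repressor, a nuclear ankyrin protein, the pyruvate dehydrogenase kinase and the phosphofructokinase activator enzyme. Bnip3l (0.56 ± 0.16, edgeR adjusted p = 0.0509) and Kdm3a (0.76 ± 0.23, 0.0596) were next. Among the glycolytic enzymes the lowest edgeR adjusted p was 0.117 for Eno2 (-0.25 ± 0.09), then 0.118 for Gpi1 (0.73 ± 0.26), and 5 of 13 had an unadjusted p under 0.05, against 14 of 21 hypoxia targets and 19.6% of all genes. DESeq2 called 9 members, Gpi1 among them, and gave Egln3 no adjusted p. For DESeq2 and the alternative fits that follow, the share of all genes called is not reported here. With the close LIRKO chow pairs summed Plod2 and Egln3 passed, without Ctrl HFD replicates 1 and 2 the count was again 6, with Bnip3l in (edgeR adjusted p = 0.0226) and Pfkfb3 out (0.0845), without LIRKO HFD replicate 2 or 3 the count was 3, and without Ctrl HFD replicate 4 it was 15, including the enzymes Gpi1 and Eno1. Leaving out 1 library ended no call of Plod2, Egln3 or Mxi1, while Ankrd37 lost its call without LIRKO HFD replicate 2 or 3. Pdk1 kept its call only without LIRKO HFD replicate 1, Ctrl HFD replicate 1, 3 or 4, or Ctrl chow replicate 1, 4 or 6, and Pfkfb3 only without LIRKO HFD replicate 1, Ctrl HFD replicate 4 or Ctrl chow replicate 1.

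The genotype by diet interaction (the LIRKO effect on HFD less the one on chow) passed for no member by edgeR, and 0.00519% of all genes passed. No member had an unadjusted p under 0.05, as 5.52% of all genes did. DESeq2 called none either. The median interaction was -0.22 for hypoxia targets and 0.15 for glycolytic enzymes. Its SEs ran up to 1.50, for Ak4.

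**Figure D3:**
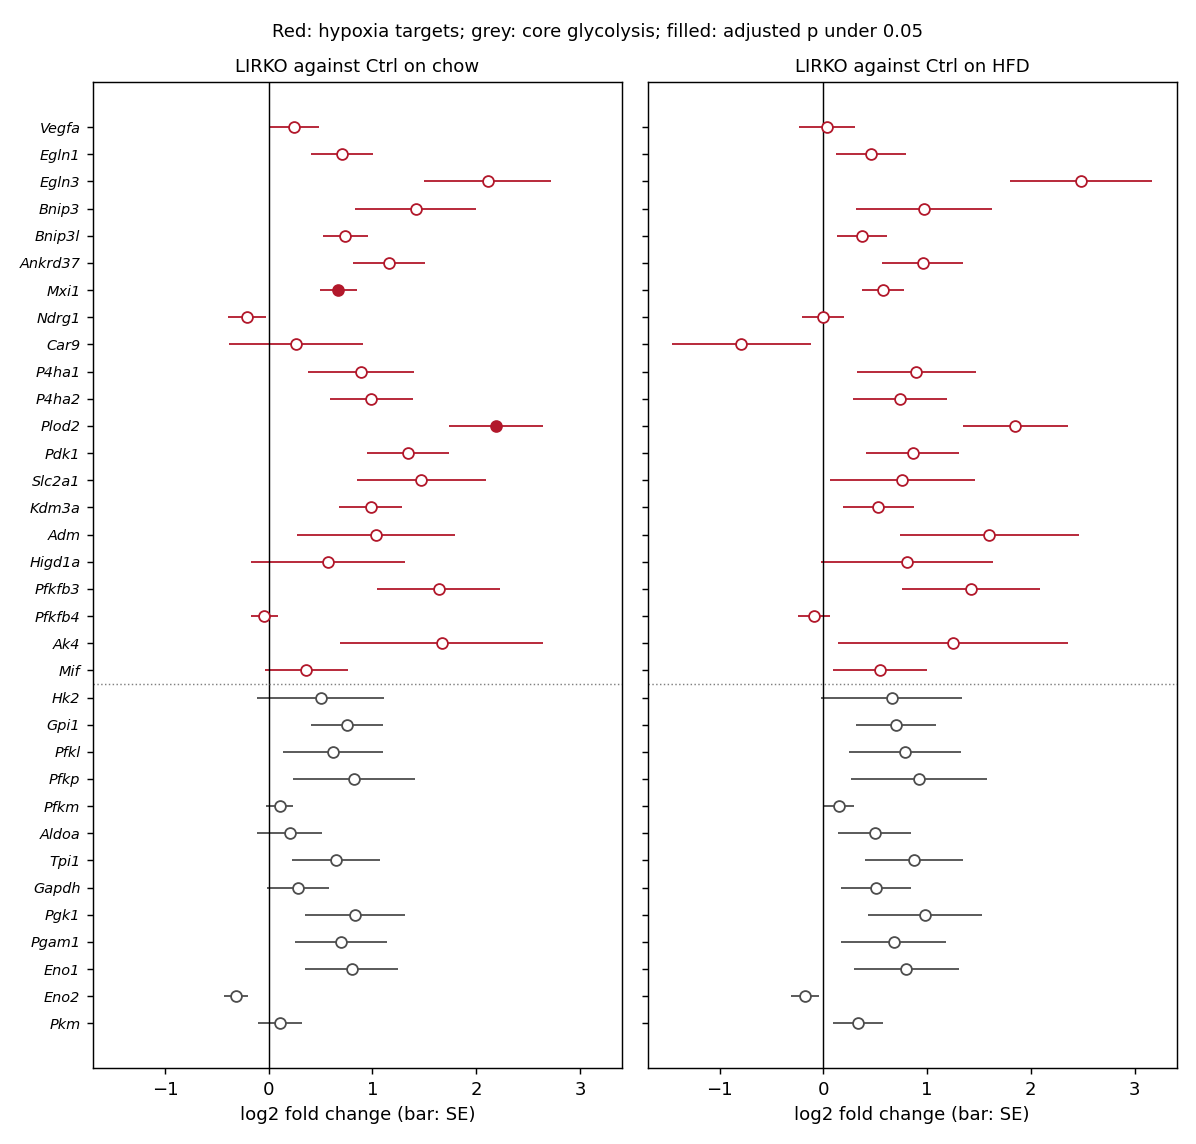
Log2 fold change of LIRKO against Ctrl with its SE for all 34 genes, on chow (left) and on HFD (right); red marks hypoxia targets, grey core glycolysis, and filled points an edgeR adjusted p under 0.05. Plod2 and Mxi1 are filled on chow and no gene on HFD, and most points lie right of 0 in both panels.

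The diet comparisons use the same libraries as the genotype comparisons, so their values are not independent of those above. In Ctrl beta cells Ndrg1 fell on HFD, the 1 member past the threshold where 9.93% of all genes passed, 5.57% as higher and 4.35% as lower. Ndrg1 was at 126, 154, 231, 249.6 and 246 CPM in Ctrl HFD libraries, all below the 265, 319 and 433 CPM (lowest, median, highest) of Ctrl chow, with a log2 change of -0.72 ± 0.17 (edgeR adjusted p = 0.0315). It was the only member with separated groups in that comparison, where 2.13% of all genes were separated as lower and 1.43% as higher. The call was lost without any one of Ctrl HFD replicates 1 and 2 and Ctrl chow replicates 1, 2 and 6, with an edgeR adjusted p of 0.0593 to 0.0817, with the LIRKO chow pairs summed (0.0607), and without Ctrl HFD replicates 1 and 2 together (0.154). Next by edgeR adjusted p, without passing, were Car9 (1.78 ± 0.59, 0.0579), which had at most 27 reads in any library, and the enzymes Pkm (-0.58 ± 0.20, 0.0673) and Gapdh (-0.80 ± 0.29, 0.0699). Aldoa had -0.69 ± 0.30 (0.116) and Mif -0.87 ± 0.39.

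The median log2 change on HFD in Ctrl was -0.17 for hypoxia targets and -0.58 for glycolytic enzymes, against 0.04 over all genes. Scaling by library size alone moved the median of all genes by 0.18 in this comparison and by 0.22 in LIRKO, and the hypoxia median in Ctrl then became 0.03; without Ctrl HFD replicates 1 and 2 together it was 0.17. In LIRKO beta cells no member passed on HFD (edgeR; 2.03% of all genes did), 1 had an unadjusted p under 0.05, Ndrg1, as did 16.5% of all genes, and DESeq2 called none. Ndrg1 passed without Ctrl HFD replicates 1 and 2, at an edgeR adjusted p of 0.0350. The medians were -0.36 for hypoxia targets and -0.40 for glycolytic enzymes. Every LIRKO HFD library was below every LIRKO chow library for 8 hypoxia targets and 6 glycolytic enzymes, against 18.3% of all tested genes. Ndrg1 was among them, at 213, 188 and 202 CPM in LIRKO HFD and 300.0, 319, 271 and 262 CPM in LIRKO chow libraries (-0.52 ± 0.21). So were Egln1 (-0.66 ± 0.36), Bnip3 (-1.15 ± 0.72), Pdk1 (-0.77 ± 0.48), Slc2a1 (-1.10 ± 0.76) and Gapdh (-0.58 ± 0.36). Egln3 had the opposite sign, 0.91 ± 0.71, and Pfkfb4 was the 1 member with all LIRKO HFD libraries higher, as were 16.1% of all genes. Averaged over both genotypes Ndrg1 (-0.62 ± 0.14, edgeR adjusted p = 0.00882) and Gapdh (-0.69 ± 0.23, 0.0433) fell on HFD, where 9.18% of all genes passed as lower, and Pkm was next (-0.46 ± 0.16, 0.0518). Leaving out 1 library ended no call of Ndrg1, while Gapdh kept its call only without LIRKO chow replicate 4, Ctrl HFD replicate 3 or 4, or Ctrl chow replicate 3, 4 or 5, and had an edgeR adjusted p of 0.0548 to 0.0975 otherwise. Gapdh also lost it with the LIRKO chow pairs summed (0.119) and without Ctrl HFD replicates 1 and 2 (0.122). The endothelial markers moved with diet as well, with a median log2 change of 1.69 in Ctrl and 1.70 in LIRKO and 12 of 12 above 0 in both. The stromal markers had medians of 1.86 in Ctrl and 1.94 in LIRKO with 9 of 9 above 0 in both, and the macrophage markers 0.69 with 8 of 10 above 0 in Ctrl and 1.45 with 10 of 10 above 0 in LIRKO. Past the threshold as higher were 4 of 12 endothelial markers in Ctrl and 1 of 12 in LIRKO, 3 of 10 macrophage markers in LIRKO and none in Ctrl, and no stromal marker in either. Of all genes 5.57% passed as higher in Ctrl and 1.06% in LIRKO. The part of these cell types in the members' values was not tested.

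Within the groups the same libraries were low or high for most members. LIRKO HFD replicate 1 was the lowest of its 3 libraries for 30 of 34 members, while 40.7% of all tested genes were lowest there. Ctrl HFD replicate 4 was the highest of 5 for 31 members (22.7% of all genes), and Ctrl chow replicate 1 the highest of 6 for 29 members (21% of all genes). The median difference of LIRKO HFD replicate 1 from the mean of the other 2 LIRKO HFD libraries was -1.34 for hypoxia targets and -1.51 for glycolytic enzymes on the log2 scale, and 0.00 over all genes. Ak4 was 26.8-fold and Adm 21.7-fold higher in those other libraries, and Slc2a1 7.65-fold. The summed alpha cell markers were at 964, 3272 and 4095 CPM in the LIRKO HFD libraries, replicate 1 first, and the summed beta cell markers at 209111, 128451 and 110042 CPM. In replicate order the alpha cell sum was at 782, 1483, 4550, 4687 and 991 CPM in Ctrl HFD. It was at 2200, 1983, 1357, 1793, 1069 and 1015 CPM in Ctrl chow, and at 936, 956, 2368 and 2562 CPM in LIRKO chow. The hypoxia means of the same libraries are given below. The part of other cell types in these differences was not tested.

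The within-group SD of log2 CPM had a median of 0.74 for hypoxia targets and 0.76 for glycolytic enzymes, against 0.38 for all tested genes, and it was above that all-gene median for 27 of 34 members. Ak4 had 2.05, Adm 1.39, Higd1a, a mitochondrial protein that eases respiratory complex assembly, 1.36, and Slc2a1 1.13. The other end held Eno2 with 0.15, Pfkfb4 with 0.17, Pfkm with 0.19, Ndrg1 with 0.29 and Mxi1 with 0.30. Mxi1 passed on chow with a log2 change of 0.67, while Ak4 with 1.67 did not.

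To set both gene groups side by side in each library, log2 CPM (prior count 2) was averaged over the 21 hypoxia targets and over the 13 enzymes, each gene relative to its Ctrl chow mean. The hypoxia mean was -0.53, 1.10 and 1.14 in LIRKO HFD, 0.94, 1.02, 1.30 and 1.24 in LIRKO chow, and -1.15, -0.70, 0.27, 0.96 and -1.01 in Ctrl HFD libraries. In Ctrl chow it ran from -0.76 to 0.97. The glycolysis mean was -0.62, 0.60 and 0.58 in LIRKO HFD, 0.46, 0.57, 0.72 and 0.62 in LIRKO chow, and -1.27, -0.60, 0.03, 0.47 and -0.98 in Ctrl HFD libraries, and in Ctrl chow it ran from -0.73 to 0.84. LIRKO HFD replicate 1 and Ctrl HFD replicate 1 were lowest in their groups by both means, and Ctrl HFD replicate 4 and Ctrl chow replicate 1 were highest in theirs by both. The highest hypoxia mean of all libraries was that of LIRKO chow replicate 3, and the highest glycolysis mean that of Ctrl chow replicate 1.

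The hypoxia mean minus the glycolysis mean was 0.48, 0.45, 0.59 and 0.62 in LIRKO chow libraries and between -0.17 and 0.16 in the 6 Ctrl chow libraries, without overlap. On HFD it was 0.08, 0.50 and 0.56 in LIRKO and 0.12, -0.10, 0.24, 0.49 and -0.03 in Ctrl libraries, which overlapped. Ctrl chow replicate 1, whose hypoxia mean of 0.97 matched the lower LIRKO chow libraries, had a difference of 0.13. These are descriptions of chosen members, with no test.

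**Figure D4:**
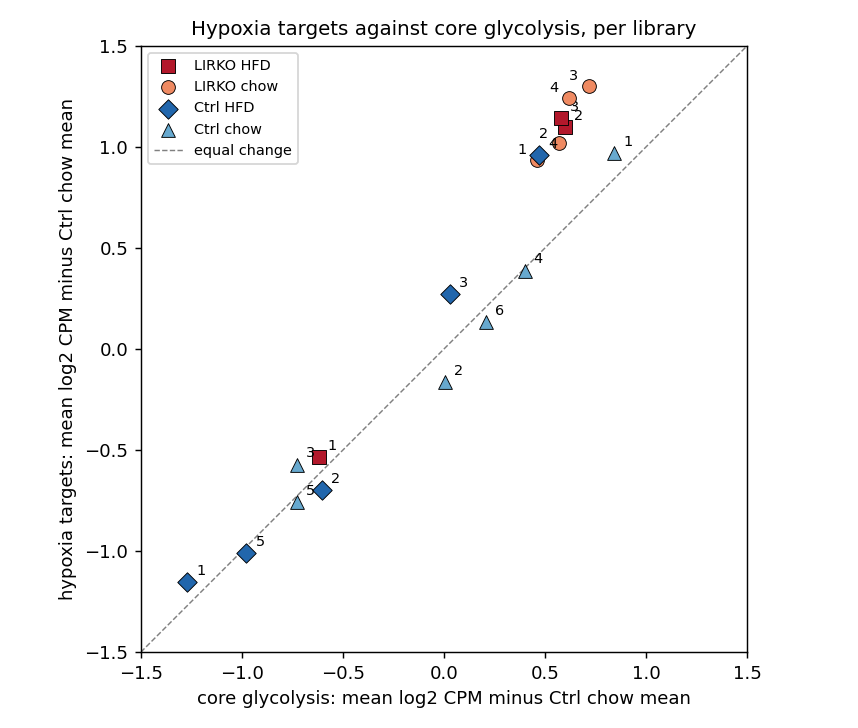
Mean log2 CPM of the 21 hypoxia targets (vertical) against that of the 13 glycolytic enzymes (horizontal), both relative to the Ctrl chow mean, with 1 point per library, numbered by replicate; the dashed line marks equal values. The 4 LIRKO chow points and 2 of 3 LIRKO HFD points lie above the line at the upper right with Ctrl HFD replicate 4, while Ctrl chow points follow the line.

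Members and their relatives held different shares of their families from library to library. These shares depend on exon length, which counts all annotated exons of a gene. It was 13401 bases for Pfkp, 6675 for Pfkl and 3340 for Pfkm. In LIRKO chow the mean share was 16.2% for Pfkp and 26.4% for Pfkm, while mean CPM had the reverse order, 273 and 110. In CPM per kb of exon, the liver-type subunit Pfkl was at 65.8 to 77.2 in LIRKO chow and 19.5 to 87.6 in Ctrl chow libraries, and the muscle-type Pfkm at 31.3 to 35.2 in LIRKO chow and 25.7 to 41.3 in Ctrl chow libraries. Pfkm supplied 24.4% to 28.4% of summed phosphofructokinase CPM per kb in LIRKO chow and 18.6% to 56.3% in Ctrl chow libraries, and 60.2%, 24.6% and 25.1% in the LIRKO HFD libraries. Eno1 made up 71.0% to 74.8% of the enolases in LIRKO chow and 38.4% to 75.5% in Ctrl chow libraries. The muscle enolase Eno3 supplied 15.6% to 28.1% in LIRKO HFD and 12.7% to 55.5% in Ctrl HFD libraries.

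Slc2a1 supplied 63.7% to 80.3% of the summed glucose transporter CPM per kb (Slc2a1, Slc2a2 and Slc2a3) in LIRKO chow and 12.3% to 58.1% in Ctrl chow libraries, without overlap. Slc2a2 itself was at 112 ± 41.2 CPM in LIRKO chow and 222 ± 104 CPM in Ctrl chow libraries (SD, n = 4 and 6). On HFD the Slc2a1 share was 19.7%, 80.5% and 76.1% in LIRKO and 12.6% to 71.1% in Ctrl libraries. Hk2, the inducible high-affinity hexokinase, supplied at most 2.21% of the hexokinases in any library. Pfkfb3 held 40.2% to 53.6% of the 4 Pfkfb genes in LIRKO chow and 8.01% to 47.5% in Ctrl chow libraries. Egln3 remained the smallest of the prolyl hydroxylases in every group, with 4.80% to 16.9% in LIRKO HFD, 5.67% to 6.96% in LIRKO chow, 0.699% to 6.16% in Ctrl HFD and 0.750% to 3.18% in Ctrl chow libraries.

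**Figure D5:**
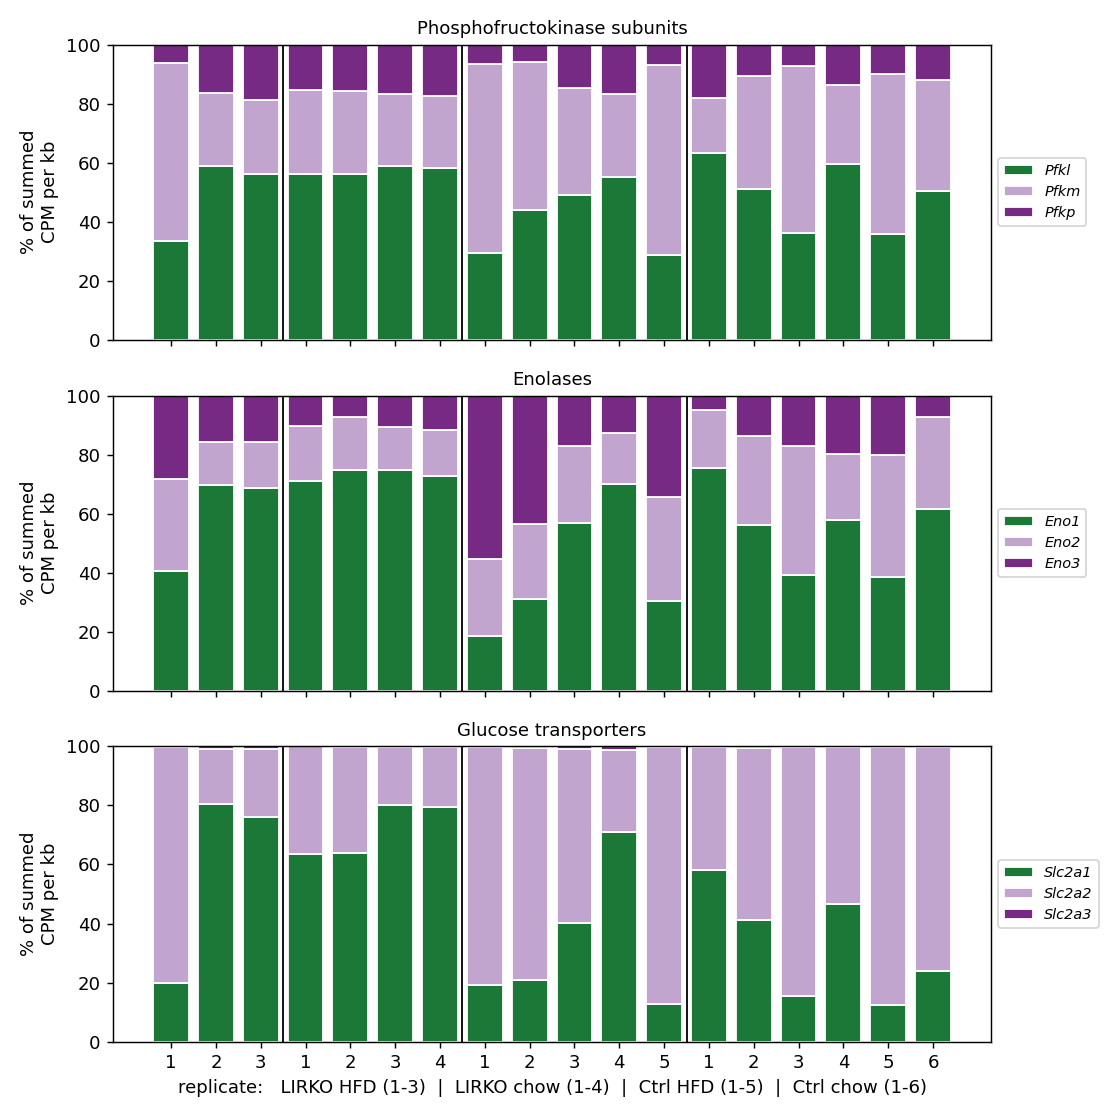
Share of each isoenzyme in the summed CPM per kb of its family in every library: phosphofructokinase subunits (top), enolases (middle) and glucose transporters (bottom), with groups separated by lines. Slc2a1 takes the larger part in all 4 LIRKO chow libraries, in LIRKO HFD replicates 2 and 3, in Ctrl HFD replicate 4 and in Ctrl chow replicate 1, and Pfkm takes the larger part where Pfkl and Pfkp are low.

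Levels per kb spanned a wide range, and they too depend on the annotated exon length. Aldoa, the aldolase of glycolysis, was the highest member in each group, at 457, 603, 324 and 523 CPM per kb in LIRKO HFD, LIRKO chow, Ctrl HFD and Ctrl chow. Pkm, the last enzyme of the pathway, had 222, 282, 175 and 261 CPM per kb in the same order, and Vegfa, the highest or second-highest hypoxia target, 169.6, 185, 165 and 157. The enzymes Tpi1 and Gapdh and the targets Mif and Bnip3 were also among the higher members. Plod2 (2.73, 2.89, 0.752 and 0.631 CPM per kb), Pfkfb4, Adm, Higd1a, Hk2 and Car9 were at the low end, and Car9 was the lowest in every group. Eno2 and Pfkm lay between, at 24.1 and 30.8 CPM per kb in LIRKO HFD and 29.0 and 30.6 CPM per kb in Ctrl chow.

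None of the 9 genes of the HIF machinery passed between genotypes on either diet by edgeR or DESeq2. By edgeR 5.15% of all genes passed on chow and 0.508% on HFD. An unadjusted edgeR p under 0.05 was seen for 1 of 9 on each diet, Arnt on chow and Epas1 on HFD. Of all genes 18.8% had such a p on chow and 7.81% on HFD. On chow Hif1a was at 123 ± 6.35 CPM in LIRKO and 100.1 ± 18.6 CPM in Ctrl (SD, n = 4 and 6; log2 change 0.30 ± 0.20), and Arnt at 92.8 ± 6.45 and 71.6 ± 7.41 CPM (0.37 ± 0.15). Epas1, which is abundant in endothelium, was at 29.2 ± 4.62 CPM in LIRKO HFD, 7.17 ± 3.77 CPM in LIRKO chow, 12.4 ± 2.57 CPM in Ctrl HFD and 4.38 ± 4.52 CPM in Ctrl chow libraries. Its LIRKO HFD range, 24.6 to 33.8 CPM, lay above those of LIRKO chow (3.85 to 10.6 CPM) and Ctrl HFD (9.35 to 15.8 CPM). Groups separated as higher for 16.1% and 2.51% of all genes in those comparisons. The Epas1 log2 changes were 2.02 and 1.23, and neither passed by edgeR. For HFD against chow in LIRKO, DESeq2 called 1 of the 9 machinery genes as higher. In Ctrl Epas1 rose on HFD (1.50 ± 0.45, edgeR adjusted p = 0.0463), a call that 20 of 27 alternatives ended. The endothelial marker sum was 182 to 371 CPM on HFD and 44.1 to 232 CPM on chow in Ctrl libraries. In LIRKO libraries it was 285 to 364 CPM on HFD and 20.5 to 205 CPM on chow. The part of this sum in the Epas1 values was not tested.

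Of 27 tested HIF targets outside the 34, 7 passed as higher in LIRKO on chow and none as lower, beside 2.95% and 2.2% of all genes. DESeq2 called 9 as higher and none as lower. Stc2, a secreted glycoprotein, was at 7.02 ± 1.10 CPM in LIRKO chow and 1.37 ± 0.378 CPM in Ctrl chow (2.35 ± 0.31, edgeR adjusted p = 2.66e-04). Hmox1, heme oxygenase (1.84 ± 0.45), Angptl4, a lipase inhibitor (1.67 ± 0.41), and the glycoprotein gene Stc1 (1.62 ± 0.44) also rose, as did Ddit4, an inhibitor of mTORC1 (0.49 ± 0.12), and the nuclear receptor Rora (0.44 ± 0.12). Stc2 kept its call under all 27 alternatives, and each of the other 6 lost it without LIRKO chow replicate 3 or 4. With the LIRKO chow pairs summed those 6 also lost it, and the 5 named had an edgeR adjusted p of 0.168 to 0.294. On HFD 1 of 27 passed as higher and none as lower, beside 0.316% and 0.192% of all genes. It was Stc2 (1.84 ± 0.35, edgeR adjusted p = 0.0211), a call lost without LIRKO HFD replicate 2 or 3 or Ctrl HFD replicate 1, 3 or 5, or with the LIRKO chow pairs summed (0.0545). HFD against chow in Ctrl gave 2 of 27 higher and 2 of 27 lower, beside 5.57% and 4.35% of all genes. Stc1 (1.49 ± 0.42) was among the higher ones, and the lower ones were Ddit4 (-0.43 ± 0.12) and the glycogen-targeting subunit Ppp1r3c (-0.77 ± 0.19). Each of these calls was lost without Ctrl HFD replicate 1 or 2, alone or together, or with the LIRKO chow pairs summed.

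Of 34 other tested genes of glycolytic branches and neighbouring pathways, 1 was higher and 2 were lower in LIRKO on chow, beside 2.95% and 2.2% of all genes. Fbp2, the muscle fructose bisphosphatase of gluconeogenesis, rose to 42.7 ± 3.28 CPM in LIRKO against 3.65 ± 1.18 CPM in Ctrl (3.55 ± 0.42, edgeR adjusted p = 1.51e-04). Gpd2, the mitochondrial glycerol phosphate shuttle enzyme (-0.75 ± 0.18), and Pcx, pyruvate carboxylase (-0.68 ± 0.16), fell. Fbp2 kept its call under all 27 alternatives, and Gpd2 and Pcx lost theirs without LIRKO chow replicate 3 or 4 or with the LIRKO chow pairs summed (edgeR adjusted p = 0.229 and 0.215). On HFD Fbp2 rose (2.21 ± 0.45), a call lost without LIRKO HFD replicate 2 or 3, LIRKO chow replicate 2, or Ctrl HFD replicate 1, 2, 3 or 5, or with the LIRKO chow pairs summed (0.0750). On HFD in Ctrl, 1 of 34 rose, Eno3 (1.42 ± 0.39), and 5 of 34 fell, beside 5.57% and 4.35% of all genes: Tigar, which lowers the phosphofructokinase activator (-0.73 ± 0.14), the islet glucose 6-phosphatase G6pc2 (-0.86 ± 0.19), the pyruvate carrier Mpc1 (-0.83 ± 0.19), Pcx (-0.50 ± 0.15) and Gpd2 (-0.54 ± 0.16). The Tigar call held without either Ctrl HFD replicate 1 or 2 alone and was lost without both, and the other 5 calls were lost without either one or with the LIRKO chow pairs summed.

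Some values carry a limit of counting. Gapdh has 77 near-identical copies in the genome, which held at most 10.5% of the counts summed over Gapdh and its copies, so reads may be split between them. Pkm shares 767 exonic bases with Gm49759 on the same strand, Ankrd37 shares 349 with Lrp2bp and 57 with Ufsp2 on the opposite strand, and Pfkp shares 748 with Pitrm1 on the opposite strand. In the library where each was highest, Lrp2bp had 278 and Ufsp2 4578 counts, and Ankrd37 had 2181. Pitrm1 held at most 64.5% of the summed counts of Pitrm1 and Pfkp. In the library with that share it thus had more counts than Pfkp. The 2 near-identical models of Pkm, Gm49759 among them, held at most 8.48% of the counts summed over them and Pkm. The libraries were directional, but the strand setting of the counting is not given in the sources used here. A second gene model named Aldoa held at most 0.0819% of the counts of the main one and was kept apart.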

How the data were processed

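RNA-seq of sorted beta cells was deposited as raw read counts per Ensembl gene for 18 libraries. Per the submitters' processing notes, reads were aligned to GRCm38 with STAR and counted with featureCounts. Versions and the strand setting of counting were not given in the sources used here. Per the labels' protocols, a directional library kit was used. Gene names came from GENCODE M21.

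From the deposited counts, genes with low counts were removed with edgeR's filterByExpr (edgeR 4.0.16, limma 3.58.1, R 4.3.3), libraries were scaled by TMM, and 1 quasi-likelihood fit with a coefficient per group and no covariate gave all 7 comparisons, two-sided, with Benjamini-Hochberg adjustment over 19284 genes and a threshold of 0.05. The fit was tested on simulated data. CPM values use the scaled library sizes. CPM per kb divides them by the length of all annotated exons of the gene, with overlaps counted once. Total counts per library were 19490235 to 51714775. The SE of a log2 change was derived from its test, as the size of the change divided by the square root of the quasi-likelihood F statistic. The errors combine counting noise, which depends on the reads of each gene, and the spread between libraries, and these were not separated. No deposited column was left out.

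Alternatives were RLE factors, library size alone, no filter, DESeq2 1.42.0, a fit of only the groups compared, LIRKO chow pairs summed, pairs of libraries left out, and each library left out in turn. Near-identical gene copies were searched with blastn 2.17.0. The 34 members and all lists were chosen with earlier results of these data known. Log2 changes are given for members and for listed pathway genes past the threshold, at most 6 per list and comparison by p, with all HIF machinery genes allowed. Stc1 on chow lies outside that limit and completes its list there. Results for some listed pathway genes are not reported here.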

Additional observations from a re-analysis of the deposited data

Results flagged for a closer look

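In groups of 4 to 6 libraries, single values far from the rest of their group (Dixon's test at the 95% level, which flags about 1 in 20 groups by chance) were found in 7 of 102 gene and group sets, or 6.86%. In Ctrl chow replicate 1, Bnip3 was at 354 CPM against 62.6 to 167 CPM in the other Ctrl chow libraries, and P4ha1 at 448 CPM against 103 to 229.5 CPM. In the same library Plod2 was at 6.95 CPM against 2.12 to 3.19 CPM, and Adm at 4.24 CPM against 0.277 to 1.60 CPM. In Ctrl HFD replicate 4, Egln3 was at 16.0 CPM against 1.44 to 5.42 CPM in the other Ctrl HFD libraries, and Plod2 at 9.73 CPM against 1.79 to 3.94 CPM. In Ctrl chow replicate 6, the muscle phosphofructokinase subunit Pfkm was at 138 CPM against 85.8 to 101 CPM. The 6 hypoxia target values were all high values of a Ctrl library.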

How the results depend on the processing

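Of 2601 alternative values of the 97 single log2 changes, 2209 kept direction and side of the threshold, 305 lost and 86 gained a call, and 1 reversed: Epas1 on chow was -0.16 without LIRKO chow replicates 3 and 4. For LIRKO against Ctrl on chow, 2 members passed, but 5 with RLE factors, 4 with no filter, 6 with DESeq2, 12 in a fit of the compared groups alone, 0 with LIRKO chow pairs summed, 8 without Ctrl HFD replicates 1 and 2, 1 without LIRKO chow replicates 1 and 2, 0 without LIRKO chow replicates 3 and 4, and 1 to 6 without single libraries. On HFD the count of 0 became 1 with DESeq2 and 0 to 2 without single libraries. For HFD against chow in Ctrl, 1 passed, but 0 with no filter, the compared groups alone, pairs summed or without Ctrl HFD replicates 1 and 2, 4 with DESeq2, and 0 to 3 without single libraries. In LIRKO the count of 0 became 1 with the compared groups alone or without Ctrl HFD replicates 1 and 2. The averaged genotype count of 6 was 2 with pairs summed or without LIRKO chow replicates 3 and 4, and 3 to 15 without single libraries. The averaged diet count of 2 was 1 with no filter, pairs summed or without Ctrl HFD replicates 1 and 2, 5 with DESeq2, 0 without LIRKO chow replicates 1 and 2, and 1 to 8 without single libraries. The interaction count stayed 0 under all 26 alternatives. The hypoxia median was 0.82 to 1.17 on chow and 0.41 to 1.23 on HFD over all alternatives, and the glycolysis median 0.46 to 0.89 and 0.34 to 1.12. The causes of these changes were not tested. As the share of all genes called under each alternative is not reported here, changed counts cannot be read as particular to the members. DESeq2 gave no adjusted p for Egln3, or for Car9 in 1 comparison. No paired analysis was possible because the labels give no replicate numbers or pairing.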
